A study of Mus musculus with 14 samples.

Results

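The comparison set NK1.1- ILTCk against PD1+ Tconv in bulk RNA sequencing of mouse T cells. Its groups were set by sample label, not by any measured value, although earlier results of these data were known when it was chosen. It rests on 4 of the 14 samples of the series, 2 libraries a group, with all genes of the table. ILTCk are innate-like T cells of the αβ lineage with killer function, named so by the study, and Tconv are conventional T cells. A further group of 2 libraries, NK1.1+ ILTCk, shares the table and is used to place the NK1.1- cells beside their NK1.1+ counterparts. All 3 groups carry the label retrogenic, a term for mice whose blood system was rebuilt from progenitors carrying a T cell receptor added by retrovirus. The sources used here do not give the receptor, strain, age or tumour. The protocol describes PD1+ Tconv as CD45+ TCRβ+ CD8α+ CD4- TCRγδ- cells from tumours that were PD-1+ and NK1.1-, and NK1.1+ ILTCk as the matching PD-1- NK1.1+ cells. It gives no gate or tissue for the NK1.1- ILTCk, and the cell type field of both ILTCk groups has a final P (ILTCkP, the name the study uses for thymic progenitors) that their titles lack; the titles are followed here. The samples are called biological replicates, but separate animals are not stated, so a p-value reflects the spread among these libraries alone, which may be technical.

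Conventional CD8 T cells that meet antigen for a long time, as in tumours, take on a state called exhaustion, in which inhibitory receptors such as PD-1 and transcription factors such as TOX and the NR4A family are expressed. Innate-like T cells are selected on self antigen in the thymus and carry features of natural killer (NK) cells. Many of them use receptors coupled to the adaptors FcRγ (Fcer1g) and DAP12 (Tyrobp), which signal through tyrosine motifs (ITAMs) as the CD3 chains do, and have little of the CD8β coreceptor chain.

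Total counts per library lay between 16530085 and 28097845, and levels are given as CPM, the count of a gene divided by the library total after TMM scaling. The T cell receptor chain genes Cd3e, Cd3d, Cd3g, Trac, Trbc1 and Trbc2 were detected in all libraries, which shows T cell RNA in each and not its share of cells. Their summed level was 1418 and 1034 CPM in NK1.1- ILTCk, and 4452 and 3004 CPM in PD1+ Tconv. Both NK1.1- libraries lay below both PD1+ libraries. Of the single chains, Cd3e was at 205 and 83.8 against 961 and 335 CPM and Trac at 165 and 107 against 679 and 245 CPM, neither called by DESeq2 (adjusted p 0.142 and 0.206), and the blocked fit called Cd3e (0.0486). Genes of other cells lay the other way. The 22 macrophage and monocyte genes summed to 5147 and 4577 CPM in NK1.1- ILTCk and to 283 and 1593 CPM in PD1+ Tconv. The 24 mammary epithelium and tumour genes summed to 16356 and 13388 CPM against 3576 and 5189.5 CPM, and the 12 dendritic cell and MHC class II genes to 5772 and 2302 CPM against 453 and 1048 CPM. Salivary and lacrimal gland genes split the replicates instead. Their sum was 46918 and 20652 CPM in NK1.1- ILTCk but 1637 and 315995 CPM in PD1+ Tconv, where they took 23.6% of all counts of the second library. In bulk libraries fewer cells of a type and less RNA per cell cannot be told apart.

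**Figure D1:**
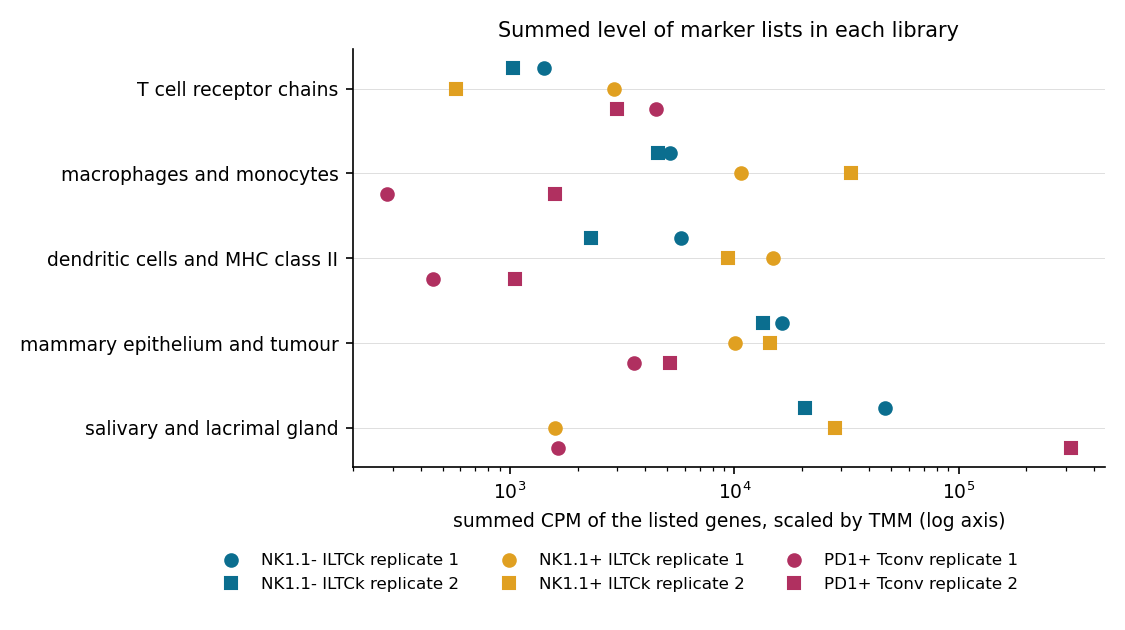
Summed level of 5 marker lists (CPM scaled by TMM, log axis) in each of the 6 libraries, coloured by group; circles are replicate 1 and squares replicate 2. T cell receptor chains are at 1418 and 1034 CPM in NK1.1- ILTCk and at 4452 and 3004 CPM in PD1+ Tconv, while macrophage, MHC class II and mammary genes lie higher in both NK1.1- libraries, and gland genes are highest in 1 PD1+ library.

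Several genes of the exhausted state, of antigen receptor signalling and of killing stood lower in NK1.1- ILTCk than in PD1+ Tconv. Tox, Tigit, Nr4a2, Nr4a3, Eomes, Gzmk, Zap70 and Sh2d1a were called lower in NK1.1- ILTCk by DESeq2 and by edgeR with a replicate block, with log2 fold changes between -2.60 and -4.02. These genes stayed lower in both libraries when counts were scaled to the T cell receptor chains. The main test, edgeR without a block, called none of them at 2 libraries a group, so each call rests on the fit named beside it. Sums over whole lists did not stay lower on that scale, where 74.4% of all genes lay above. Summed per chain count, cytotoxic effectors were at 2.68 and 2.78 in NK1.1- ILTCk against 2.025 and 2.031 in PD1+ Tconv. TCR-induced genes were at 0.864 and 1.17 against 0.525 and 0.479, and ITAM adaptors and proximal kinases at 1.49 and 1.33 against 1.26 and 1.125. Inhibitory receptor and exhaustion genes overlapped, at 0.442 and 0.689 against 0.709 and 0.558. Among genes called higher, Csf1r, Retnla and Mgl2 are known from macrophages and Lgr6 from epithelium.

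Each gene was compared on a pair of scales. The first was TMM. The second divided counts by the summed T cell receptor chain genes of the library, which gives a level per T cell receptor chain count and assumes that these chains are alike per cell in both groups. This second scale moved the median log2 fold change of all genes upward by 1.59, from -0.04 to 1.55 (NK1.1- ILTCk minus PD1+ Tconv throughout), so only a gene that is lower by more than the chains themselves stays below 0 on it.

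On the TMM scale edgeR's quasi-likelihood test called 0 of 18091 genes (0%) at a Benjamini-Hochberg adjusted p under 0.05, with a smallest adjusted p of 0.285. At an unadjusted p under 0.05 there were 2147 genes (11.9%), of which 1078 (5.96%) were higher and 1069 (5.91%) lower. limma-voom also called 0. DESeq2 called 376 genes higher (2.08%) and 311 lower (1.72%). The replicate numbers moved together across groups, and edgeR with the replicate number as a block called 165 higher (0.912%) and 133 lower (0.735%). DESeq2 and the blocked fit shared 208 genes, all in the same direction. Genes whose 2 NK1.1- libraries both lay below both PD1+ libraries numbered 4105 (22.7%), and 4174 (23.1%) lay above. On the T cell receptor chain scale 346 genes (1.91%) lay below and 13462 (74.4%) above. All 346 were also below on the TMM scale, and they are called lower on both scales here.

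Inhibitory receptor and exhaustion genes were lower in NK1.1- ILTCk for part of the list. Of the 18 genes tested, DESeq2 called 8 lower and none higher (1.72% and 2.08% of all genes), and the blocked fit called 7 lower (0.735%). One of these is Pdcd1, whose outcome the PD-1 gate fixed. The gate may also act on genes expressed together with Pdcd1, and its part in the other members was not tested. Without Pdcd1, DESeq2 called 7 of 17 lower and the blocked fit 6. The unblocked edgeR fit called 0, with 9 lower at an unadjusted p under 0.05 (5.91% of all genes). The median log2 fold change of these 17 was -1.66 on the TMM scale and -0.01 on the T cell receptor chain scale (-1.80 and -0.11 with Pdcd1), against -0.04 and 1.55 over all genes. Libraries were lower on both scales for 6 of the 17 (1.91% of all genes), namely Lag3, Tigit, Tox, Nr4a2, Nr4a3 and Nfatc1. Leaving out any 1 of the 4 compared libraries gave 6 to 9 such genes of the list, and 743 to 1463 of all genes, since fewer libraries overlap less often.

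Pdcd1 encodes PD-1 itself (chromosome 1, 94038305 to 94052553 on GRCm38) and is part of the gate for PD1+ Tconv, so its level checks the labels and is not a finding. It stood at 17.7 and 29.2 CPM in NK1.1- ILTCk and 752 and 518 CPM in PD1+ Tconv. The groups were far apart, as the gate implies. Tox (chromosome 4, 6686353 to 6991557), the transcription factor that holds cells in the exhausted state, was at 22.2 and 6.20 CPM in NK1.1- ILTCk and 296 and 167 CPM in PD1+ Tconv. Both NK1.1- libraries lay well below both PD1+ libraries, with a log2 fold change of -4.02 ± 1.04 (standard error). The DESeq2 adjusted p was 0.00163 and the blocked edgeR adjusted p 0.0286, and the log2 fold change was -2.49 on the T cell receptor chain scale. Tigit, an inhibitory receptor for nectin-type ligands, was at 19.3 and 6.24 CPM against 168 and 90.4 CPM. The libraries again did not overlap, with a log2 fold change of -3.34 ± 0.95 and -1.79 on the second scale (DESeq2 adjusted p 0.0104). Lag3, an inhibitory receptor that binds MHC class II, was low in both groups, at 1.06 and 0.228 CPM against 33.6 and 5.51 CPM. The 2 PD1+ libraries differed widely from each other for Lag3, and its log2 fold change of -4.89 ± 1.40 carried the largest standard error of these 6 genes (DESeq2 adjusted p 0.00265).

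Nfatc1, the calcium-driven factor downstream of the antigen receptor, had 60.8 and 25.2 CPM in NK1.1- ILTCk and 369 and 141 CPM in PD1+ Tconv, a log2 fold change of -2.57 ± 0.68 (DESeq2 adjusted p 0.0132). Batf, its frequent partner in exhausted cells, had 19.8 and 17.5 against 64.2 and 49.6 CPM. On TMM the Batf groups did not overlap and DESeq2 called it (adjusted p 0.00673), but on the T cell receptor chain scale its log2 fold change was -0.01 and the libraries overlapped. Thus Batf was lower by about as much as the receptor chains.

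The NR4A genes encode orphan nuclear receptors induced by antigen receptor signals, and the 3 of them did not move as one. Nr4a2 was at 30.8 and 34.95 CPM in NK1.1- ILTCk and 412 and 194 CPM in PD1+ Tconv. Nr4a3 was at 10.7 and 12.03 CPM against 74.8 and 97.3 CPM. For both genes the NK1.1- libraries were close to each other and far below the PD1+ libraries. The log2 fold change was -3.20 ± 0.48 for Nr4a2 (DESeq2 adjusted p 3.38e-07, blocked edgeR 0.0286). For Nr4a3 it was -2.92 ± 0.39 (DESeq2 adjusted p 1.08e-08, blocked edgeR 0.0286). On the T cell receptor chain scale the values were -1.50 and -1.36. Nr4a1, in contrast, was at 166 and 239 CPM in NK1.1- ILTCk and 251 and 90.0 CPM in PD1+ Tconv. Its groups overlapped, and the log2 fold change was 0.25 ± 0.79 (DESeq2 adjusted p 0.930). Since a ratio of a pair of genes within a library cannot be moved by scaling, it was also taken, for pairs chosen after the values were seen. The Nr4a2 to Nr4a1 ratio was 0.186 and 0.146 in NK1.1- ILTCk against 1.64 and 2.16 in PD1+ Tconv. The Nr4a3 to Nr4a1 ratio was 0.0646 and 0.0503, against 0.299 and 1.08. Neither ratio overlapped between the groups, although an exact permutation test of 2 against 2 libraries cannot give a two-sided p below 0.333. Macrophages also express Nr4a1, and their summed genes were higher in both NK1.1- libraries; their part in these ratios was not tested.

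The promoters of these genes are shown because the 3 differ in level while sharing a sequence feature. Each line gives the 250 bases before the RefSeq start on GRCm38, 5′ to 3′ along the gene, with matches in capitals to TGACG or its reverse complement CGTCA, the core of the cyclic AMP response element. The windows are chr15:101266596-101266845 on the plus strand for Nr4a1, chr2:57124004-57124253 on the minus strand for Nr4a2 and chr4:48045055-48045304 on the plus strand for Nr4a3.
Nr4a1: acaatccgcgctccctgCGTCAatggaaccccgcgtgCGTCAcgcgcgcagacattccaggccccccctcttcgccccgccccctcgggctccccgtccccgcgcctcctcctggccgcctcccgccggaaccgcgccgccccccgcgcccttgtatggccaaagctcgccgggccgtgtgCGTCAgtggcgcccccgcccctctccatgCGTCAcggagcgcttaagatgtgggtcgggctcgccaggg
Nr4a2: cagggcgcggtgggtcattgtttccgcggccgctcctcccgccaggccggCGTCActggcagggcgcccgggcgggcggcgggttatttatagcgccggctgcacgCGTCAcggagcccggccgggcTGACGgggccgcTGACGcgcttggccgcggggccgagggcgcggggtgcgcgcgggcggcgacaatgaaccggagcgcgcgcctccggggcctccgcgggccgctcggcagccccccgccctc
Nr4a3: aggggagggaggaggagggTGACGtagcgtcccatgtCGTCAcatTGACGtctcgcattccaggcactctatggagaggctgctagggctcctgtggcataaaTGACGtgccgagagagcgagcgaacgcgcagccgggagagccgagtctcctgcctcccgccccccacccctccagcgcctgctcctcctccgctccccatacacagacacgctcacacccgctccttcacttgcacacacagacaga
Each of the 3 held 4 matches. Of the 32851 promoters in the RefSeq table, 17.8% held at least 1 match in the same window and 0.137% held at least 4. Nr4a1, which overlapped between the groups, thus had as many matches as Nr4a2 and Nr4a3, which did not. A match is a description of the letters and not a measured binding site.

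**Figure D2:**
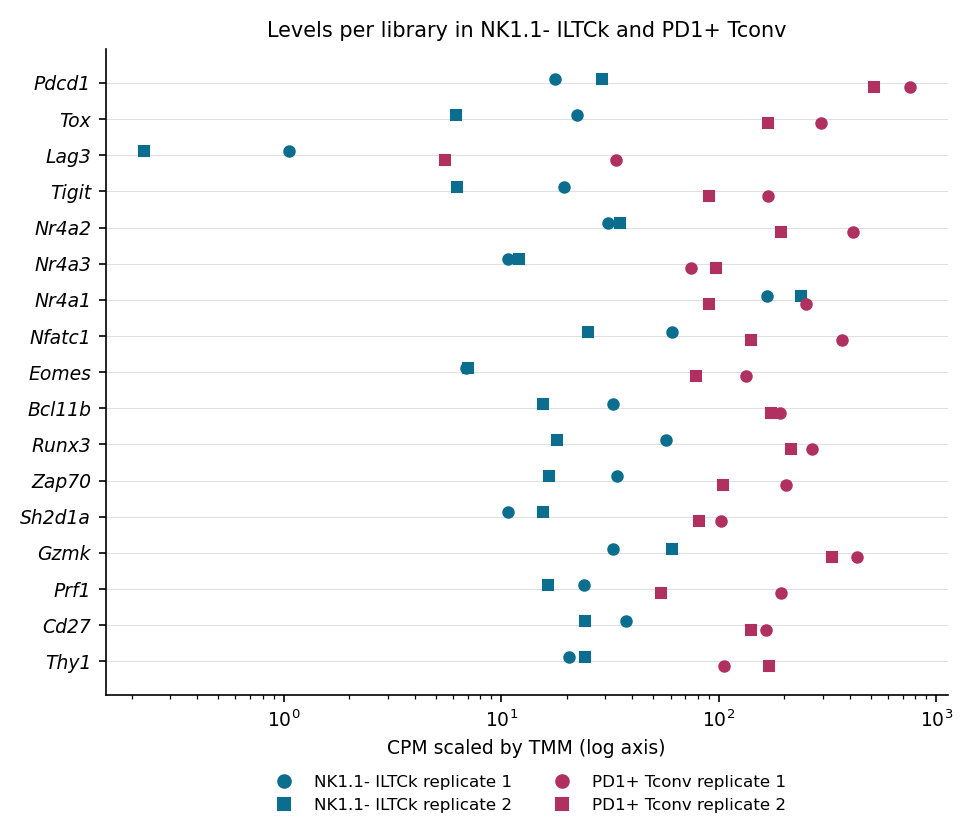
Level of 17 genes (CPM scaled by TMM, log axis) in the 2 libraries of NK1.1- ILTCk and the 2 of PD1+ Tconv; circles are replicate 1 and squares replicate 2. For every gene but Nr4a1 both NK1.1- libraries lie left of both PD1+ libraries, and Nr4a1 overlaps; Pdcd1 is part of the PD1+ gate.

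Among the 20 TCR-induced genes, DESeq2 and the blocked fit each called 4 lower (Nr4a2, Nr4a3, Dusp2 and Dusp5) and 0 higher. Over all genes they called 1.72% and 0.735% lower. On both scales 3 were lower (Nr4a2, Nr4a3 and Dusp2), against 1.91% of all genes. Dusp2, a nuclear phosphatase that switches off ERK, was at 36.0 and 54.9 CPM in NK1.1- ILTCk and 277 and 247 CPM in PD1+ Tconv, with no overlap and a log2 fold change of -2.53 ± 0.40 (DESeq2 adjusted p 1.77e-06). Dusp5, another ERK phosphatase, was at 36.6 and 36.6 against 260.0 and 102 CPM (DESeq2 adjusted p 0.00345). Fos, an immediate early factor that dissociation of tissue also induces, lay the other way. Fos was at 1420.4 and 1526 CPM in NK1.1- ILTCk and 371 and 632 CPM in PD1+ Tconv, where both NK1.1- libraries were above and DESeq2 did not call it (adjusted p 0.0857). Of the 18 dissociation and heat stress genes, 6 had both NK1.1- libraries above the PD1+ libraries on TMM (23.1% of all genes did) and 3 had them below (22.7%), with a median of 0.02. DESeq2 called 0 and the blocked fit 1 higher (Atf3), 3 were higher and 0 lower at an unadjusted edgeR p under 0.05, and on the T cell receptor chain scale all 18 lay above, as 74.4% of all genes did. Their part in the results was not tested.

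Kinases and adaptors next to the antigen receptor were lower in part, and the adaptors of innate receptors stood higher without a call on TMM. Of the 20 ITAM adaptors and proximal kinases, DESeq2 called 5 lower and 0 higher (Zap70, Lat, Sh2d1a, Sh2d2a and Themis). The blocked fit called 5 lower (Zap70, Sh2d1a, Sh2d2a, Fyn and Ubash3a). At an unadjusted edgeR p under 0.05, 11 were lower and 2 higher. Over all genes the shares lower were 1.72%, 0.735% and 5.91%, and 5.96% were higher at the unadjusted p. The median of the 20 was -1.72 on TMM and -0.08 on the T cell receptor chain scale. Fyn, Zap70, Lat, Sh2d1a, Sh2d2a and Ubash3a were lower on both scales, 6 of 20 (1.91% of all genes). Zap70, the kinase that binds phosphorylated CD3 and ζ chains, was at 34.2 and 16.54 CPM in NK1.1- ILTCk and 203 and 105 CPM in PD1+ Tconv. Its log2 fold change was -2.60 ± 0.74, and -1.004 on the second scale (DESeq2 adjusted p 0.0211). Sh2d1a, which encodes SAP, the adaptor of SLAM family receptors, was at 10.8 and 15.5 CPM against 102 and 81.2 CPM. Both NK1.1- libraries were several-fold below the PD1+ libraries, with a log2 fold change of -2.80 ± 0.43 (DESeq2 adjusted p 1.75e-06). Lat, the scaffold that ZAP-70 phosphorylates, had 97.8 and 65.8 against 309 and 316 CPM (DESeq2 adjusted p 0.0433). Cd247, the CD3ζ chain, had 69.6 and 57.4 against 237 and 166 CPM. It was not called (DESeq2 adjusted p 0.154), and its log2 fold change on the T cell receptor chain scale was -0.05.

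Fcer1g, the FcRγ adaptor that marks ILTCk, was at 318 and 226 CPM in NK1.1- ILTCk and 184 and 81.0 CPM in PD1+ Tconv. The NK1.1- libraries were above both PD1+ libraries, with a log2 fold change of 1.04 ± 0.52 that was not called (DESeq2 adjusted p 0.293). Tyrobp, the DAP12 adaptor, was at 258 and 181 CPM against 97.1 and 77.5 CPM, a log2 fold change of 1.33 ± 0.43 (DESeq2 adjusted p 0.0600). Syk, the kinase that both adaptors recruit, was at 22.9 and 7.97 against 3.75 and 4.45 CPM (DESeq2 adjusted p 0.109). All 3 stood higher in both NK1.1- libraries. On TMM none was called by edgeR, with or without the block, or by DESeq2, and on the T cell receptor chain scale the blocked fit called Syk (adjusted p 0.0421). The Fcer1g to Cd247 ratio was 4.57 and 3.93 in NK1.1- ILTCk against 0.773 and 0.489 in PD1+ Tconv. The Zap70 to Syk ratio was 1.49 and 2.07 against 54.1 and 23.5. Macrophages express Fcer1g, Tyrobp and Syk, and 20 of the 22 macrophage genes had both NK1.1- libraries above the PD1+ libraries (background 23.1%), with summed levels of 5147 and 4577 CPM against 283 and 1593 CPM and no listed gene at 0. The part of macrophage transcripts in these values was not tested.

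NK-type receptors gave a single call. Of 24 genes, DESeq2 and the blocked fit each called 1 higher (2.08% and 0.912% of all genes) and 0 lower. The list median was -0.10 on TMM and 1.645 on the T cell receptor chain scale, against -0.04 and 1.55 over all genes. On that second scale 17 of the 24 had both NK1.1- libraries above both PD1+ libraries, where 74.4% of all genes did. Klrb1c, which encodes NK1.1, was at 29.9 and 12.4 CPM in NK1.1- ILTCk and 39.5 and 2.35 CPM in PD1+ Tconv, both sorted or named as NK1.1-, and 309 and 68.5 CPM in NK1.1+ ILTCk. The NK1.1- libraries thus lay below both NK1.1+ libraries, as labelled, and overlapped PD1+ Tconv. The 1 called gene, Fcgr3, encodes an Fc receptor that macrophages also carry, and stood at 86.1 and 85.4 CPM against 9.04 and 13.4 CPM (DESeq2 adjusted p 6.38e-04). The Ly49 genes among the list (Klra) are near-identical copies, so their counts are uncertain.

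Among the cytotoxic effector genes, Gzmk and Prf1 were lower. Of the 15 tested, DESeq2 and the blocked fit each called these 2 lower and 0 higher (1.72% and 0.735% of all genes were called lower). The list median was -1.10 on TMM and 0.55 on the T cell receptor chain scale. Gzmk (chromosome 13, 113171608 to 113225908), a granzyme of memory-type CD8 cells, was at 32.5 and 60.9 CPM in NK1.1- ILTCk and 430.0 and 331 CPM in PD1+ Tconv, with no overlap. Its log2 fold change was -3.03 ± 0.56, and -1.34 on the second scale (DESeq2 adjusted p 5.15e-05, blocked edgeR 0.0384). Prf1, the pore-forming perforin, was at 24.1 and 16.4 against 193 and 54.1 CPM (DESeq2 adjusted p 0.0377). Nkg7, a granule membrane protein, was lower on both scales but not called by DESeq2 (adjusted p 0.0592), at 683 and 586 against 2558 and 3123 CPM. Gzmb, the main killer granzyme, overlapped, at 873 and 417 CPM in NK1.1- ILTCk and 1479.7 and 266 CPM in PD1+ Tconv. Gzma had 499.8 and 318 against 1387 and 592 CPM and Gzmc 106 and 48.6 against 94.8 and 4.37 CPM, and neither was called (DESeq2 adjusted p 0.359 and 0.850). The Gzmk to Gzmb ratio was 0.0373 and 0.146 in NK1.1- ILTCk against 0.291 and 1.25 in PD1+ Tconv.

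Lineage transcription factors held a few clear differences. Of 27, DESeq2 called Eomes, Bcl11b, Runx3 and Prdm1 lower and 1 further gene higher (1.72% and 2.08% of all genes). The blocked fit called the first 3 and Tbx21 lower (0.735% of all genes). Eomes, Bcl11b and Runx3 were lower on both scales (1.91% of all genes). Eomes (chromosome 9, 118478212 to 118486132), the T-box factor of memory and exhausted CD8 cells, was at 6.87 and 7.06 CPM in NK1.1- ILTCk and at 134 and 78.7 CPM in PD1+ Tconv, with both NK1.1- libraries far below both PD1+ libraries. The log2 fold change was -3.93 ± 0.56, and -2.27 on the T cell receptor chain scale (DESeq2 adjusted p 2.02e-08, blocked edgeR 0.0286). Tbx21, the related factor T-bet, was nearer, at 45.4 and 21.7 against 156 and 78.0 CPM. DESeq2 did not call it (adjusted p 0.149), whereas the blocked fit did (0.0493). The Eomes to Tbx21 ratio was 0.152 and 0.326 in NK1.1- ILTCk against 0.861 and 1.01 in PD1+ Tconv. Bcl11b, which keeps T cell identity against the NK fate, was at 32.6 and 15.6 CPM against 191 and 174 CPM, a log2 fold change of -2.92 ± 0.66 (DESeq2 adjusted p 0.00238). Runx3, the factor that fixes the CD8 lineage, had 57.1 and 18.0 against 268 and 215 CPM (DESeq2 adjusted p 0.0206). Prdm1, which encodes BLIMP-1, a factor of terminal effector cells, had 14.2 and 13.5 against 71.4 and 31.7 CPM (adjusted p 0.0444), and its libraries overlapped on the T cell receptor chain scale.

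Tcf7, the factor TCF-1 of naive and stem-like cells, stood at 43.7 and 27.0 against 125 and 50.5 CPM and was not called (DESeq2 adjusted p 0.220). Zfp683, which encodes the tissue residency factor Hobit, and Zbtb16, which encodes the innate T cell factor PLZF, overlapped between the groups. Zfp683 was at 23.2 and 4.37 against 34.2 and 5.67 CPM, and Zbtb16 at 0.915 and 0.410 against 0.891 and 0.162 CPM.

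Coreceptor and costimulation genes were mostly lower on TMM and near the receptor chains on the second scale. Of 17, DESeq2 called Cd8b1, Cd27, Cd28, Thy1 and Slamf6 lower and none higher (1.72% and 2.08% of all genes). The blocked fit called the same genes without Cd28 (0.735% of all genes). Cd27, Thy1 and Slamf6 were lower on both scales (1.91% of all genes). The median was -1.33 on TMM and 0.27 on the T cell receptor chain scale. Cd8b1 (chromosome 6, 71322788 to 71337494), the CD8β chain, was at 134 and 199 CPM in NK1.1- ILTCk and 721 and 879 CPM in PD1+ Tconv, a log2 fold change of -2.26 ± 0.47 (DESeq2 adjusted p 6.58e-04). Cd8a, the CD8α chain, was at 476 and 287 CPM against 1391 and 808 CPM and was not called (DESeq2 adjusted p 0.310). Their ratio, Cd8b1 to Cd8a, was 0.281 and 0.693 in NK1.1- ILTCk against 0.518 and 1.09 in PD1+ Tconv. Across the groups these ratios overlapped, and between libraries of the same replicate number the NK1.1- ratio was the lower in both pairs. Thy1, a surface glycoprotein of T cells, was at 20.6 and 24.2 against 106 and 170.1 CPM (DESeq2 adjusted p 0.00189), and Cd27, a costimulatory receptor, at 37.3 and 24.2 against 165 and 140.1 CPM (adjusted p 0.0106). Cd4, which the PD1+ gate shut out, stood at 33.8 and 30.7 CPM in NK1.1- ILTCk and 20.9 and 1.62 CPM in PD1+ Tconv (DESeq2 adjusted p 0.445).

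**Figure D3:**
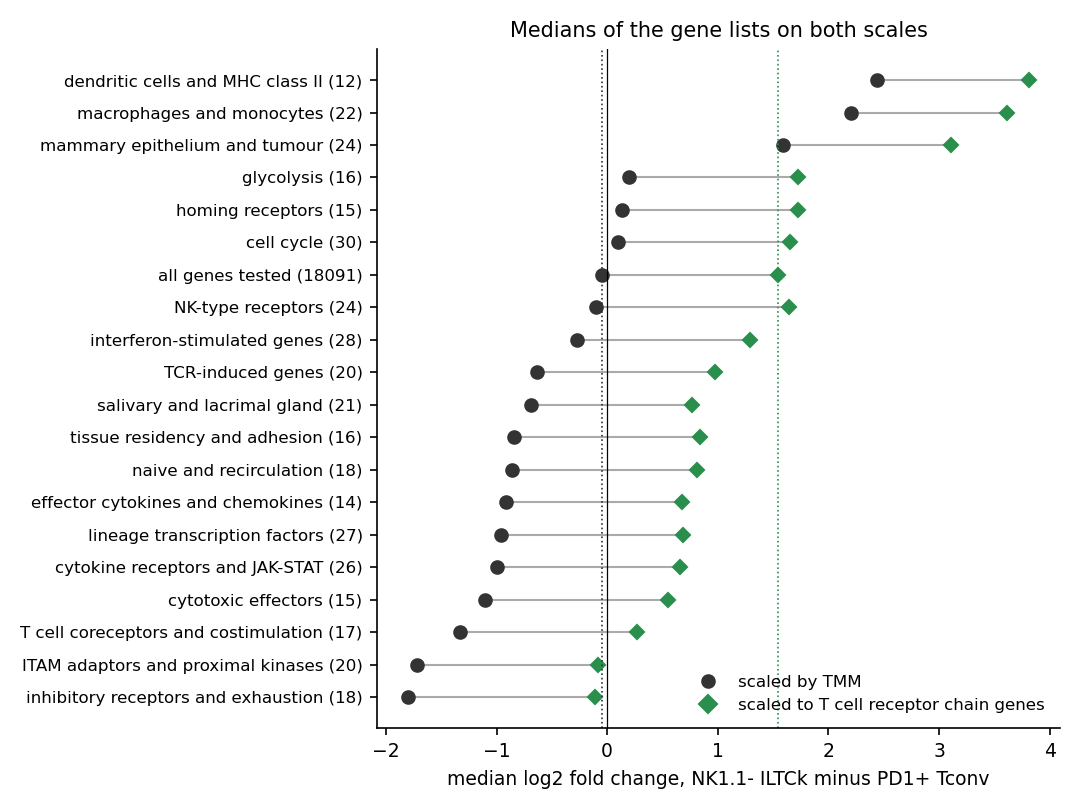
Median log2 fold change of each list (NK1.1- ILTCk minus PD1+ Tconv; number of tested genes in brackets) scaled by TMM (circles) and scaled to the T cell receptor chain genes (diamonds); dotted lines mark the medians of all 18091 genes, -0.04 and 1.55. The inhibitory receptor list, here with the gated Pdcd1, lies at -1.80 on TMM (-1.66 without it) and the macrophage and MHC class II lists are highest at 2.21 and 2.44.

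Further program lists held few called genes. Over all genes DESeq2 called 2.08% higher and 1.72% lower, and the blocked fit 0.912% and 0.735%. Among the 15 homing receptors, Cxcr5, the follicle-homing receptor, was at 2.63 and 1.18 CPM against 44.3 and 15.5 CPM, a log2 fold change of -3.96 ± 1.04 (DESeq2 adjusted p 0.00258). S1pr4, a sphingosine phosphate receptor, was also lower on both scales, at 5.07 and 3.42 against 24.6 and 19.2 CPM (DESeq2 adjusted p 0.00800). Gpr183, the oxysterol receptor EBI2, was the third that DESeq2 called, at 32.2 and 50.2 against 121 and 153 CPM, and the blocked fit called Cxcr5 alone. Ccr10, a skin and mucosal homing receptor, was the 1 homing gene that DESeq2 called higher, at 2.39 and 3.28 against 0.191 and 0 CPM, and the blocked fit did not call it (0.0859). Itga4, the α4 integrin, was the 1 of 16 residency and adhesion genes called, at 35.5 and 20.3 against 311 and 116 CPM (DESeq2 adjusted p 0.00263). Itgae, the residency integrin CD103, overlapped between the groups, at 347 and 136 against 710.2 and 107 CPM.

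Of 26 cytokine receptor and JAK-STAT genes, DESeq2 called 1 lower, Il10ra, which encodes a chain of the interleukin-10 receptor, at 52.7 and 28.8 against 293 and 145 CPM (adjusted p 0.00209). The blocked fit called Il10ra and Socs1, a feedback inhibitor of JAK kinases, at 22.2 and 9.66 against 75.3 and 45.5 CPM (0.0446). Il2rb, the shared chain of the interleukin-2 and interleukin-15 receptors, stood at 345 and 99.3 against 1221 and 349 CPM (adjusted p 0.287). Of 14 effector cytokines and chemokines DESeq2 called 3 lower: Ifng, Ccl3 and Ccl4. Ifng, which encodes interferon-γ, was at 17.3 and 25.3 CPM in NK1.1- ILTCk and 76.3 and 62.5 CPM in PD1+ Tconv (adjusted p 0.0146), but its log2 fold change on the T cell receptor chain scale was -0.05. Ccl3 was at 30.1 and 21.2 against 103 and 85.3 CPM and Ccl4 at 90.3 and 71.0 against 284 and 317 CPM, both chemokines of activated T cells. The blocked fit called Ccl4 alone. Ccl5, a further chemokine of cytotoxic T cells, was lower on both scales at 483 and 358 against 1895 and 1931 CPM, and was not called (DESeq2 adjusted p 0.152). Naive and recirculation genes (18), cell cycle genes (30) and glycolysis genes (16) had 0 DESeq2 calls. Each list had 2 genes at an unadjusted edgeR p under 0.05, where 11.9% of all genes were. The blocked fit called 1 gene of these lists, the glucose transporter gene Slc2a3, lower (22.2 and 9.62 against 75.3 and 37.3 CPM, 0.0483). In contrast, 7 of the 16 glycolysis genes had both NK1.1- libraries above both PD1+ libraries on TMM (23.1% of all genes did). Every gene above on TMM was also above on the T cell receptor chain scale, so that scale adds no support. The summed level was 9208 and 8831 CPM against 5594 and 7702 CPM. Summed mammary and tumour genes were also higher in both NK1.1- libraries, and their part was not tested. Mki67, which encodes the proliferation marker Ki-67, was at 32.4 and 53.7 against 155 and 78.1 CPM, while Ccnb1, which encodes mitotic cyclin B1, was at 136 and 109 against 68.2 and 49.3 CPM. These cell cycle genes stood in opposite directions on TMM, and neither was called. On the T cell receptor chain scale both stood above 0 (0.30 and 2.66). There 29 of the 30 had both NK1.1- libraries above both PD1+ libraries, where 74.4% of all genes did. The list median was 1.66 on that scale, near the 1.55 of all genes. Pfkl, which encodes the liver form of phosphofructokinase, was at 368 and 241 against 128 and 138 CPM (DESeq2 adjusted p 0.0881). Interferon-stimulated genes (28) had 1 call, Parp14, at 34.9 and 63.8 against 134 and 151 CPM. The medians of the naive, cell cycle, glycolysis and interferon lists on TMM were -0.86, 0.10, 0.19 and -0.28.

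The 12 lower genes with the smallest edgeR p, among well-expressed genes outside the lists of other cells whose libraries did not overlap, were Pdcd1, Nr4a3, Eomes, Cmip, Nr4a2, Ttn, Sh2d1a, Dusp2, Wipf1, Rab27a, Fam169b and Smad7. All 12 were called by DESeq2 and by the blocked edgeR fit. Rab27a, the GTPase that docks cytotoxic granules at the membrane, was at 10.6 and 12.1 CPM in NK1.1- ILTCk and 69.8 and 53.4 CPM in PD1+ Tconv, a log2 fold change of -2.44 ± 0.41 (DESeq2 adjusted p 2.23e-05). Smad7, the feedback inhibitor of TGF-β signalling, was at 7.88 and 5.33 against 71.9 and 37.6 CPM, a log2 fold change of -3.05 ± 0.52 (DESeq2 adjusted p 2.04e-05). Wipf1, a partner of the actin regulator WASP, was at 28.3 and 20.1 against 144 and 112 CPM. In each of these 3 genes both NK1.1- libraries lay below both PD1+ libraries. Cmip stood at 12.9 and 16.0 against 127 and 76.1 CPM and Fam169b at 25.8 and 21.1 against 113 and 95.6 CPM.

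The higher genes chosen in the same way included Clec4a3, Ear2, Lgr6, Mmp12, Ifitm6, Lpl, Mgl2, Tlr4, Timd2, Slc28a3 and Slc44a3, again all called by DESeq2 and the blocked fit. Several are best known from myeloid cells. Clec4a3, a C-type lectin of myeloid cells, was at 42.9 and 26.3 CPM in NK1.1- ILTCk and 1.34 and 1.78 CPM in PD1+ Tconv, a log2 fold change of 4.48 ± 0.56 (DESeq2 adjusted p 5.6e-11). Mgl2, a lectin of macrophages and dendritic cells, was at 38.4 and 16.6 against 0.414 and 0.0810 CPM, and Mmp12, the macrophage elastase, at 67.0 and 26.7 against 2.96 and 3.00 CPM. Ear2, an eosinophil-type ribonuclease with near-identical copies that make its counts uncertain, was at 73.4 and 18.8 against 0.127 and 0 CPM. Lgr6, an R-spondin receptor of epithelial stem cells, was at 74.4 and 57.6 against 9.13 and 8.42 CPM. Summed macrophage and mammary genes were also higher in both NK1.1- libraries than in both PD1+ libraries. The part of those cells was not tested.

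On the T cell receptor chain scale edgeR called 28 genes higher (0.155%) and 1 lower (0.00553%), and the blocked fit called 1092 higher (6.04%) and 4 lower (0.0221%). The 28 included the macrophage genes Retnla, Mrc1 and Folr2, the myeloid lectin genes Cd209a and Mgl2, and the gland genes Prol1 and Scgb2b26, and 7 of the 29 were members of the lists of other cells. Retnla, made by alternatively activated macrophages, was at 964 and 579 CPM in NK1.1- ILTCk and 1.65 and 4.86 CPM in PD1+ Tconv. The 1 lower gene, BC037156, was at 20.6 and 7.43 CPM against 32.9 and 14776 CPM, so 1 PD1+ library carried it. No member of a T cell program list was called lower on this scale. There were 0 calls on it in either direction when either PD1+ library was left out, and 1 and 3 higher when replicate 1 or 2 of NK1.1- ILTCk was. They reached 2276 and 2420 higher without replicate 1 or 2 of NK1.1+ ILTCk, although those libraries belong to neither group compared.

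The lists of other cells were higher in NK1.1- ILTCk for myeloid and mammary genes and unresolved for gland genes. DESeq2 called 7 of 22 macrophage genes, 5 of 12 dendritic cell and MHC class II genes, 2 of 24 mammary genes and 1 of 21 gland genes higher, and none lower, where the blocked fit called 6, 0, 1 and 1. Over all genes DESeq2 called 2.08% higher and the blocked fit 0.912%. Csf1r, the growth factor receptor of macrophages, was at 192 and 88.8 CPM in NK1.1- ILTCk and 13.9 and 20.4 CPM in PD1+ Tconv. Lyz2, the macrophage lysozyme, was at 1704 and 1439 against 51.1 and 463 CPM. Epcam, an epithelial adhesion molecule, was at 723 and 1104 against 169 and 501 CPM, and Lcn2, the secreted protein lipocalin-2, at 4382 and 4768 against 840.2 and 1489 CPM. Csn3, the milk protein κ-casein, was at 7253 and 2292 against 1565 and 425 CPM. In all 5 genes both NK1.1- libraries lay above both PD1+ libraries. Bpifa2, a secreted protein of the parotid gland, was at 34729.6 and 206 CPM in NK1.1- ILTCk and 1145 and 260620.0 CPM in PD1+ Tconv, so 1 library of each group was high. DESeq2 called 0 of 7 neutrophil, 0 of 10 B cell, 0 of 6 erythroid and platelet and 1 of 12 stromal and endothelial genes (Lum, higher). Of 9 γδ T cell genes DESeq2 called 1, Trdc, lower (1.72% of all genes). The list median was -0.24 on TMM and 1.40 on the T cell receptor chain scale. On that second scale 4 of the 9 had both NK1.1- libraries above, where 74.4% of all genes did. Another 2 (Trdc and Tcrg-C4) had them below, where 1.91% of all genes did. Trdc, the δ chain constant gene, was at 1.71 and 1.46 CPM in NK1.1- ILTCk against 29.1 and 19.3 CPM in PD1+ Tconv, although TCRγδ+ cells were gated out of the latter. Its log2 fold change was -3.93 ± 0.60 (DESeq2 adjusted p 1.46e-08), and -2.31 on the T cell receptor chain scale.

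The 2 ILTCk groups were then compared, to see where the NK1.1- cells stand beside the NK1.1+ cells. edgeR called 0 genes (0%), with 712 (3.94%) at an unadjusted p under 0.05, and limma-voom 0. DESeq2 called 36 genes higher (0.199%) and 21 lower (0.116%) in NK1.1+ ILTCk, and the blocked edgeR fit 0. Of the 17 coreceptor and costimulation genes DESeq2 called 5 lower in NK1.1+ ILTCk: Cd8b1, Cd28, Icos, Cd5 and Tnfrsf4. Cd8b1 was at 134 and 199 CPM in NK1.1- and 34.8 and 20.2 CPM in NK1.1+ ILTCk, a log2 difference (NK1.1+ minus NK1.1-) of -2.60 (DESeq2 adjusted p 3.03e-04). Cd5, which dampens antigen receptor signals, was at 35.8 and 27.9 against 6.47 and 1.67 CPM (DESeq2 adjusted p 0.0236), with 92.1 and 46.4 CPM in PD1+ Tconv. Cd28, the main costimulatory receptor, was at 45.7 and 63.1 CPM in NK1.1-, 6.34 and 15.9 in NK1.1+ and 228 and 198 CPM in PD1+ Tconv. On TMM, NK1.1- ILTCk thus lay between the other groups for Cd8b1, Cd5 and Cd28. On the T cell receptor chain scale the place below PD1+ Tconv was lost: Cd5 stood above PD1+ Tconv (log2 fold change 0.53), and the Cd8b1 and Cd28 libraries overlapped with PD1+ Tconv. On that scale the unblocked edgeR fit called 0 genes between the ILTCk groups. Icos, another costimulatory receptor, was at 35.6 and 71.0 against 7.63 and 7.44 CPM (DESeq2 adjusted p 1.16e-04), and Tnfrsf4, which encodes OX40, at 14.7 and 14.9 against 2.46 and 1.62 CPM.

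Gzmk kept the in-between order on TMM, and was below both PD1+ libraries on the T cell receptor chain scale too. It was at 32.5 and 60.9 CPM in NK1.1- ILTCk, 3.75 and 1.67 CPM in NK1.1+ ILTCk and 430.0 and 331 CPM in PD1+ Tconv, and DESeq2 called it between the ILTCk groups (log2 difference -4.10, adjusted p 2.79e-08). Slamf1, a SLAM family receptor, was at 9.74 and 9.75 against 0.848 and 0.766 CPM in NK1.1- and NK1.1+ ILTCk (DESeq2 adjusted p 2.79e-08). Themis, a T cell selection adaptor, was at 19.8 and 34.6 against 4.73 and 0.947 CPM. Il7r, the interleukin-7 receptor of naive and memory cells, was at 31.7 and 43.3 CPM in NK1.1- ILTCk and 9.91 and 9.87 CPM in NK1.1+ ILTCk (DESeq2 adjusted p 0.00519). Its level in PD1+ Tconv, 43.2 and 42.6 CPM, overlapped with NK1.1- ILTCk. In the other direction, Fcer1g was at 1444 and 1227 CPM in NK1.1+ ILTCk (DESeq2 adjusted p 0.0172, log2 difference 2.30) and Tyrobp at 1089 and 788 CPM (adjusted p 0.00492). Summed macrophage genes were also higher there, at 10702 and 33231 CPM, and the macrophage genes Csf1r, Adgre1 and C1qa were among the 36 called. Their part was not tested. Both comparisons share the NK1.1- libraries, so the 2 sets of values are not independent.

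**Figure D4:**
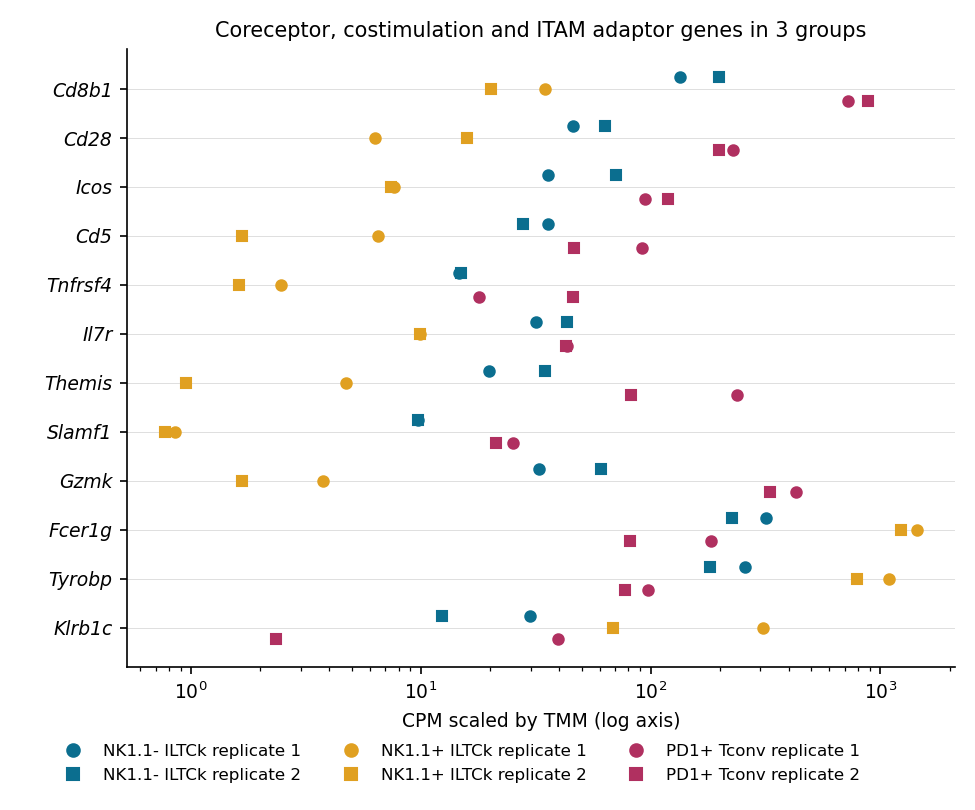
Level of 12 genes (CPM scaled by TMM, log axis) in each of the 6 libraries, coloured by group; circles are replicate 1 and squares replicate 2. For Cd8b1, Cd28, Cd5, Themis, Slamf1 and Gzmk both NK1.1- libraries lie between those of the other groups on this scale; scaled to the T cell receptor chains, Gzmk alone of these 6 stays below both PD1+ libraries, and Cd5 (0.53) and Slamf1 (0.35) turn above 0 against PD1+ Tconv. Fcer1g and Tyrobp are highest in NK1.1+ ILTCk.

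The variable segments of the receptor chains were spread differently. Per library, the share of each segment was taken over all counts on Trav (128 segments in the table) or Trbv (35 segments), with exact (Clopper-Pearson) 95% intervals that cover counting error only. The leading Trav segment held 8.59% (7.40 to 9.90) of 2003 counts and 7.28% (5.42 to 9.54) of 659 counts in the NK1.1- libraries. In PD1+ Tconv it held 27.8% (26.6 to 28.9) of 5893 counts, Trav5-1, and 18.6% (15.5 to 22.0) of 571 counts, Trav14-1. The 2 PD1+ libraries were thus led by different segments, each above the leading share in either NK1.1- library. The effective number of Trav segments (1 over the sum of squared shares) was 32.9 and 34.4 in NK1.1- ILTCk against 8.47 and 14.4 in PD1+ Tconv. For Trbv the leading segment held 13.1% (12.2 to 14.1) and 12.7% (11.4 to 14.1) in NK1.1- ILTCk. It held 25.2% (24.5 to 26.0), Trbv13-1, and 36.3% (34.7 to 38.0), Trbv12-1, in PD1+ Tconv. The effective number of Trbv segments was 12.8 and 12.5 against 6.95 and 5.65. NK1.1+ ILTCk had 40.8 and 25.8 effective Trav and 12.25 and 11.95 effective Trbv segments, also above both PD1+ libraries. The 2 PD1+ libraries were below both NK1.1- libraries for both chains, a design in which the exact permutation p cannot go below 0.333. Similar segments share sequence, so counts can be split among them, and an introduced receptor would be counted only as far as its sequence matches the annotated segments.

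**Figure D5:**
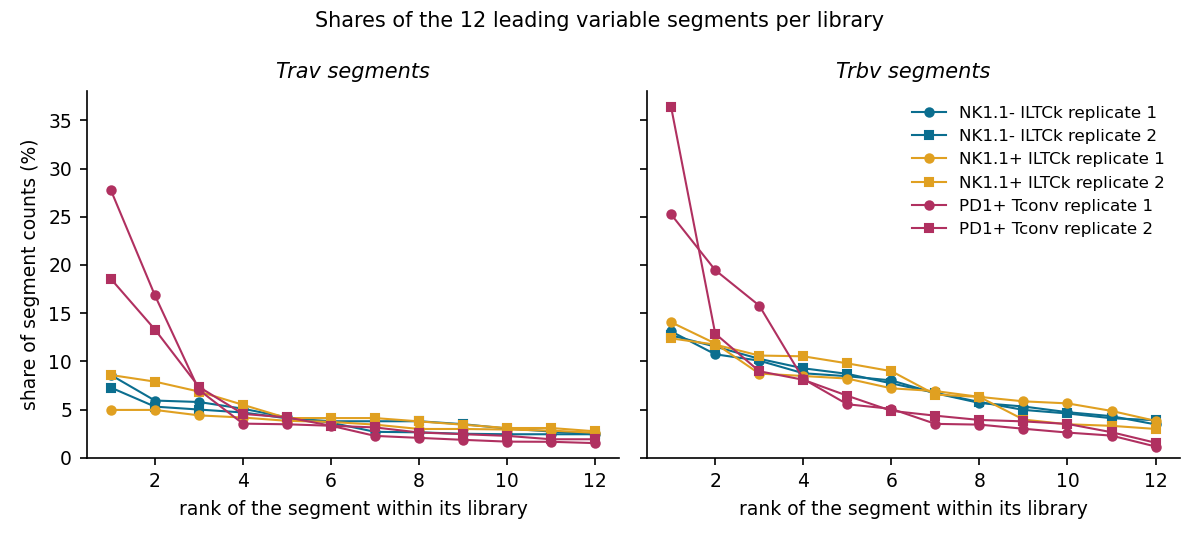
Share of segment counts (%) held by the 12 leading Trav (left) and Trbv (right) segments, by rank within each library; circles are replicate 1 and squares replicate 2. The leading segment holds 27.8% and 18.6% (Trav) and 25.2% and 36.3% (Trbv) in PD1+ Tconv, and at most 8.59% and 13.1% in NK1.1- ILTCk.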

How the data were processed

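RNA of sorted mouse T cells was sequenced in bulk. The authors deposited whole-number read counts per gene symbol for 6 libraries of 3 groups; per the submitters' processing notes the build was mm10 and DESeq was used, while aligner, counter and annotation are not named there. The single-cell libraries are not analysed here, and a table of thymic cells served only as a filter.

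Groups were taken from the sample titles. The 3 groups of 2 libraries were fitted together with edgeR 4.0.16 in R 4.3.3 (quasi-likelihood test, TMM scaling, default low-count filter). The filter kept 18091 of 50508 symbols, with Benjamini-Hochberg adjustment over all genes kept. Of the 50508 symbols, 47653 were found by name in GENCODE M21, the source of the gene coordinates on GRCm38. limma 3.58.1 (voom), DESeq2 1.42.0, a replicate block and other scalings and filters were alternatives. Library sizes were also replaced by the summed counts of the T cell receptor chain genes. Depth ran from 16530085 to 28097845 counts a library, and 2 libraries a group limit the precision of every fold change. Promoters came from the RefSeq table of GRCm38.p6, which held all 3 NR4A genes.

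The labels give every group replicates 1 and 2. Same-numbered libraries deviated together from their group means, with correlations of 0.393 (NK1.1- with NK1.1+), 0.364 (NK1.1- with PD1+) and 0.408 (NK1.1+ with PD1+). The labels do not say that a number marks a shared animal or day, so the main fit left the pairing out. The fit with the number as a block was an alternative, and its values stand beside results they change. Replicates of a group differed by far more than counting noise, so each counted as 1 sample.

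The scripts were tested on simulated counts. The comparison and the gene lists were chosen with earlier results of these data known, so no list is independent evidence. Genes were named by rule: a set of lineage genes whatever their result, the 12 per direction with the smallest edgeR p (mean logCPM at least 4, no overlap between libraries, same direction on both scales, other-cell genes and predicted genes left out), up to 4 members per list with the smallest p, and up to 3 of the highest for lists of other cells. A few genes that the rule names are not reported here. Nr4a1, Icos, Tnfrsf4, Il7r and genes given to spell out a count were chosen outside the rule after their values were seen. So were the ratios and the scaling to CD3 or constant genes alone. Fos, Mki67, Ccnb1, Socs1 and Slc2a3 met the rule by their p, and Slamf1 by its level, so these too were picked from the values.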

Additional observations from a re-analysis of the deposited data

How the results depend on the processing

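Each group had 2 libraries of at least 16530085 counts, and which of library number, depth or transcripts of other cells limited the calls was not tested. edgeR called 0 genes between NK1.1- ILTCk and PD1+ Tconv under TMM, RLE and upper-quartile scaling, TMM without genes of other cells, at least 50 counts in 2 libraries, genes of at least 10 CPM in the thymus, the 4 compared libraries alone, and without any 1 library; limma-voom also called 0. DESeq2 and the blocked fit were not refitted without single libraries. Calls higher and lower were 438 and 361 without a low-count filter, 376 and 311 with DESeq2, and 165 and 133 with the replicate block; 445 of the 799 calls made without a filter were also DESeq2 calls. Scaled to the T cell receptor chains they were 28 and 1, and 1092 and 4 with the replicate block. Between NK1.1+ and NK1.1- ILTCk the counts went from 0 to 127 and 40 without a filter, 36 and 21 with DESeq2, and 1 and 2 with the replicate block and T cell receptor chain scaling. The cause of these shifts was not tested.

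On the T cell receptor chain scale the 28 higher and 1 lower calls became 61 higher with at least 50 counts in 2 libraries, 0 and 0 with the thymus filter or with the 4 compared libraries alone, and 1092 and 4 with the replicate block. Leaving out 1 library gave 0 to 2420 higher and 0 to 5 lower calls. Chosen after seeing the data, receptor constant genes alone gave 67 higher, Cd3 genes alone 0 lower, and DESeq2 on this scale 499 and 4. The count of genes lower on both scales, 346, was 381 with Cd3 genes alone and 307 with constant genes alone, and 743 to 1463 without 1 of the 4 compared libraries.

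Of 97 named genes, 59 passed the threshold with DESeq2, 52 with the block and 68 without a filter, and all 97 kept their direction under RLE, upper-quartile and voom. Log2 fold changes that were below 0 on TMM turned above 0 with T cell receptor chain scaling, given without and then with the replicate block: Cd8a 0.078 and 0.075, Cd5 0.53 and 0.53, Gzma 0.37 and 0.38, Gzmb 1.28 and 1.45, Tcf7 0.34 and 0.32, Zfp683 1.0999 and 1.115, Itgae 0.94 and 1.18, Icos 0.62 and 0.48, Tnfrsf4 0.35 and 0.68, Il7r 1.43 and 1.35, Slamf1 0.35 and 0.33, Mki67 0.30 and 0.12, and Parp14 0.10 without the block. Gzmb stood at 0.0019 with the block on TMM. Leaving out 1 library turned the direction of Klrb1c (-0.90 to 3.19), Gzmb (-1.20 to 1.30), Gzmc (-0.30 to 4.16), Zbtb16 (-0.42 to 2.03), Zfp683 (-2.19 to 1.30), Itgae (-1.59 to 1.19), Nr4a1 (-0.32 to 1.19), Bpifa2 (-9.30 to 3.93) and Il7r (-0.40 to 0.019), none of which was called. T cell receptor chain scaling moved 24 of 29 list medians by more than the spread between library pairs, and TMM without genes of other cells moved 0. Without Pdcd1, an alternative chosen after seeing the data, the inhibitory receptor list went from 8 to 7 DESeq2 calls and from 7 to 6 blocked calls.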
